A study of Mus musculus with 12 samples.

Results

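The mRNAs of the Argonaute and TNRC6 families and of the enzymes that make miRNAs were followed in libraries of RNA bound to the m6A readers YTHDF1, YTHDF2 and YTHDF3. They were the 10 genes Ago1, Ago2, Ago3, Ago4, Tnrc6a, Tnrc6b, Tnrc6c, Dicer1, Drosha and Dgcr8, chosen by name and by role in the pathway, and all 10 were found by gene symbol among the 55573 genes of the count table. All 10 were among the 17126 genes tested, which had a mean normalised count of at least 10. Each member had at least 74 counts in every library.

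The study immunoprecipitated the endogenous YTHDF proteins from hippocampal neurons cultured for 14 days, taken from newborn mice of the C57BL/6 strain, and sequenced the RNA on the beads (RNA immunoprecipitation sequencing, RIP-seq). There were 4 groups of 3 libraries each: input RNA from the lysate with no antibody, YTHDF1 RIP, YTHDF2 RIP and YTHDF3 RIP. All libraries came from untreated wild-type neurons. Tissue of a litter was pooled over both sexes, Ara-C was added to the cultures against glial growth, and for each replicate the pooled lysate of several wells was split over the RIPs. Precipitates of a non-specific antibody were not analysed here, and RNA held by beads or antibody is therefore part of each enrichment over input.

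A primary miRNA transcript is cut in the nucleus by the RNase DROSHA with its RNA-binding partner DGCR8, and the resulting hairpin is cut in the cytoplasm by the RNase DICER1. The mature strand is loaded into an Argonaute protein (AGO1 to AGO4), which recruits a TNRC6 (GW182) scaffold that in turn brings deadenylases and translational repressors to the target mRNA. In neurons this machinery acts in the cell body and also in dendrites, where it restrains local translation. YTHDF proteins bind RNA that carries m6A, most often at an adenosine within GGAC, and GGACT is a frequent DNA spelling of that sequence.

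Coding sequence of 5 members is shown because these mRNAs span the range of responses described below: Tnrc6c, Tnrc6b and Dicer1 had the largest YTHDF1 enrichment, Ago4 was enriched by all 3 proteins, and Ago1 by YTHDF3 alone at the threshold used. Each line is the 120-base window within a coding exon that held most copies of GGACT, from 5′ to 3′ on the sense strand, with GGACT in capitals. The windows were read from GENCODE release M21 transcripts of the mouse build GRCm38.
Tnrc6c: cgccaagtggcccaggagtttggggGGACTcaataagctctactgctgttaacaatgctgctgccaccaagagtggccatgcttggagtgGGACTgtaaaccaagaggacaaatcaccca
Tnrc6b: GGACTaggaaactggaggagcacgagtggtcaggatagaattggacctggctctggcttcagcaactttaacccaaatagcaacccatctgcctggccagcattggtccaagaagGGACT
Dicer1: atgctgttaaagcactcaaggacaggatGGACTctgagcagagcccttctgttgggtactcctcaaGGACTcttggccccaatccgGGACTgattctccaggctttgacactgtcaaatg
Ago1: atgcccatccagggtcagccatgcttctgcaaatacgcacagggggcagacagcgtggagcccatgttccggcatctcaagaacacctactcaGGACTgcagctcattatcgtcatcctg
Ago4: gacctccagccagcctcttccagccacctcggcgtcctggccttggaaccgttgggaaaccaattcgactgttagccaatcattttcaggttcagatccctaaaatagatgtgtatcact
The Tnrc6c window lies in exon 5 of 22 on the plus strand (chr11:117722756-117722875), the Tnrc6b window in exon 8 of 25 on the plus strand (chr15:80879247-80879366) and the Dicer1 window in exon 21 of 27 on the minus strand (chr12:104702536-104702655). The Ago1 window lies in exon 12 of 19 (chr4:126448789-126448908) and the Ago4 window in exon 2 of 18 (chr4:126526044-126526163), both on the minus strand.

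The Dicer1 window held 3 copies of GGACT, the Tnrc6b and Tnrc6c windows held 2 each, and the Ago1 window held 1. The coding sequence of Ago4 held none, so its window has no capitals. Over whole transcripts, sense strand only, Tnrc6c had the densest GGACT of the 10, at 1.81 per kilobase, followed by Tnrc6b at 1.33, Dicer1 at 1.32, Ago1 at 1.245 and Ago2 at 1.09. Ago3 had 0.898, Drosha 0.657, Tnrc6a 0.489, Dgcr8 0.463 and Ago4 0.459 per kilobase. The median of 13455 protein-coding genes was 1.04 per kilobase, so 5 members lay above it and 5 below, and 92.6% of those transcripts held at least 1 copy. A copy of these letters is not a mapped m6A site. Tnrc6c, Tnrc6b and Dicer1, first in this order, had the largest YTHDF1 enrichment. Ago4, Dgcr8, Tnrc6a and Drosha, which lay low in it, were enriched by all 3 proteins. A link between GGACT density and enrichment was not tested.

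The members are long genes, with exonic lengths from 5935 bases (Drosha) to 23677 bases (Tnrc6b). Ago1, Ago3 and Ago4 lie beside each other on the minus strand of chromosome 4, at 126435012 to 126468583, 126331704 to 126429556 and 126489541 to 126533472. Ago2 (chromosome 15, 73095844 to 73184935, minus), Tnrc6b (chromosome 15, 80711313 to 80941085, plus) and Drosha (chromosome 15, 12824815 to 12935291, plus) share another chromosome. Tnrc6a lies on chromosome 7 at 123123885 to 123195296 (plus), Tnrc6c on chromosome 11 at 117654289 to 117763439 (plus), Dicer1 on chromosome 12 at 104687742 to 104751952 (minus) and Dgcr8 on chromosome 16 at 18253948 to 18289246 (minus). Reads that matched several places or several genes were counted for each of them. The share of 50-base windows that also occur in transcripts of another gene was 2.26% or less in 9 members and 8.15% in Dgcr8, whose exons share 327 bases on the same strand with Gm49776. Ago1 shared 125 windows with Ago3, so a small part of their counts cannot be told apart.

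Library totals were 9092494 to 13833973 counts for input, 10037804 to 38909592 for YTHDF1 RIP, 6020072 to 9259893 for YTHDF2 RIP and 21395271 to 22400602 for YTHDF3 RIP. All 6 neuron markers examined (Rbfox3, Tubb3, Snap25, Syn1, Map2 and Nefl) were detected in each group, with summed levels of 2516 to 3602 CPM (counts rescaled to the same effective library total) in input, 3974 to 7010 in YTHDF1 RIP, 1661 to 2537 in YTHDF2 RIP and 2688 to 4918 in YTHDF3 RIP. The 6 astrocyte markers, also all detected, summed to 292, 1561 and 2645 CPM in input replicates 1, 2 and 3 and ranged from 196 to 1487 CPM in the RIPs. The 4 oligodendrocyte markers summed to 1206 CPM in YTHDF1 RIP replicate 1 and to at most 290 CPM in each other library. Microglial markers summed to at most 6.00 CPM and endothelial markers to at most 2.54 CPM. The 2 fibroblast markers summed to 3.50 to 35.4 CPM in input and 2.41 to 58.8 CPM in the RIPs. The 2 interneuron markers summed to 125 to 454 CPM in input and 73.9 to 556 CPM in the RIPs. The part of these cell types in the results was not tested, and in bulk RNA fewer cells of a type and less RNA per cell cannot be told apart.

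Levels per unit of length were compared among the members in input. Drosha was highest, at 19.2 ± 1.41 normalised CPM per kilobase of exon (mean ± SD, n = 3 here and below), followed by Ago1 at 13.4 ± 0.638 and Ago2 at 12.2 ± 3.47. The scaffolds Tnrc6c (8.33 ± 0.524), Tnrc6b (5.77 ± 0.591) and Tnrc6a (4.79 ± 0.223) came next. Dicer1 (3.25 ± 0.179), Dgcr8 (2.80 ± 0.129), Ago3 (2.77 ± 0.538) and Ago4 (1.06 ± 0.217) were lowest. The neighbours Ago1 and Ago2, Ago2 and Tnrc6c, and Dgcr8 and Ago3 overlapped between replicates.

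YTHDF1 precipitates held more of 9 of the 10 mRNAs than input did, with changes from 1.83-fold (Dgcr8) to 10.8-fold (Tnrc6c), and none was lower. Enriched means a log2 fold change over input of at least 0.32 and an adjusted p of at most 0.05 (edgeR quasi-likelihood test, Benjamini-Hochberg adjustment over all genes tested), and 27.2% of all genes tested were enriched and 25.8% depleted by the same rule. YTHDF2 precipitates were enriched in 7 members and depleted in 0, against 15.7% and 19.0% of all genes. YTHDF3 precipitates were enriched in 8 and depleted in 0, against 16.4% and 23.0%. In a fit of YTHDF3 RIP and input alone with the replicate number as a block, 9 members were enriched, against 36.3% of all genes enriched and 32.2% depleted. The 7 mRNAs Ago4, Tnrc6a, Tnrc6b, Tnrc6c, Dicer1, Drosha and Dgcr8 were enriched in all 3 RIPs. Ago2 and Ago3 were enriched in the YTHDF1 RIP and Ago1 in the YTHDF3 RIP. The share of all genes enriched in all 3 RIPs was not counted. After removal of the length trend described below, only Ago4, Tnrc6c and Dicer1 were enriched in all 3. A fit of YTHDF1 RIP and input alone with the replicate number as a block enriched 5 members, against 14.0% of all genes enriched and 17.7% depleted. Same-numbered YTHDF1 RIP and input libraries did not deviate together (r of 0.09, −0.27 and −0.32).

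The median log2 fold change of the members was 1.55 with YTHDF1, 0.68 with YTHDF2 and 1.03 with YTHDF3, where the medians of all genes were 0.02, 0.02 and 0.05. Length moved with these values. Among the 4828 genes at least as long as Drosha the medians were 0.74, 0.37 and 0.54, and in the longest of 5 equal length classes 53.5% of genes were enriched by YTHDF1, 30.4% by YTHDF2 and 38.8% by YTHDF3. In the shortest class the shares were 10.4%, 4.81% and 4.35%. The members' values against input are therefore also given after a smooth trend of log ratio on gene length was taken out of every library.

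**Figure D1:**
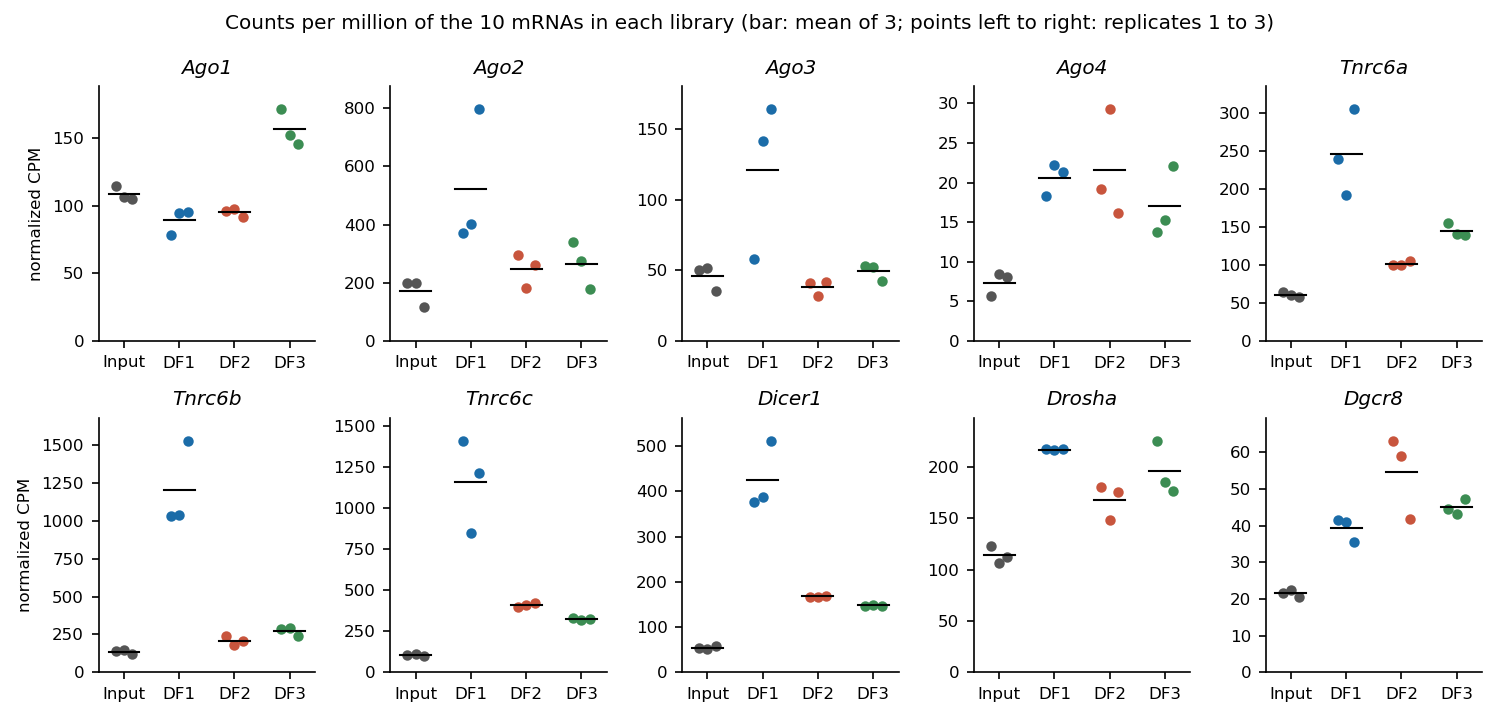
Normalised CPM (linear axis from 0, one panel per gene) in the 3 libraries of each group, with input in grey and YTHDF1, YTHDF2 and YTHDF3 RIP as DF1, DF2 and DF3. Bars are group means. Tnrc6b, Tnrc6c and Dicer1 stood far above input in each YTHDF1 library, and Ago1 was highest in the YTHDF3 libraries.

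With YTHDF1 the TNRC6 scaffolds had the largest changes, together with Dicer1. Tnrc6c was measured at 109, 113 and 99.5 normalised CPM in input replicates 1, 2 and 3 and at 1413, 849 and 1218 in the YTHDF1 RIP. YTHDF2 libraries held 396, 413 and 424, and YTHDF3 libraries 332, 322 and 323. Every RIP library exceeded every input library, and the YTHDF1 libraries exceeded all others. The log2 fold changes over input were 3.44 ± 0.21 (SE, adjusted p = 1.62e-06) for YTHDF1, 1.94 ± 0.20 (adjusted p = 0.000217) for YTHDF2 and 1.60 ± 0.20 (adjusted p = 0.000112) for YTHDF3. With the length trend removed they were 2.36, 1.51 and 0.98, and all stayed past the threshold.

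Tnrc6b had the second largest YTHDF1 enrichment of the members. Its level was 141, 148 and 121 normalised CPM in input and 1034, 1038 and 1528 in the YTHDF1 RIP. Levels were 237, 181 and 210 with YTHDF2 and 286, 296 and 242 with YTHDF3. The YTHDF1 libraries lay apart from all others, while the YTHDF2 libraries lay above input by a smaller margin. Over input, the log2 fold changes were 3.13 ± 0.22 (adjusted p = 2.91e-06), 0.62 ± 0.21 (adjusted p = 0.0366) and 1.01 ± 0.21 (adjusted p = 0.00255). The YTHDF2 call is marginal: it was lost with the replicate number as a block (adjusted p = 0.064) and when any of 5 of the 6 libraries was left out. Without the length trend Tnrc6b kept its YTHDF1 call (1.42, adjusted p = 4.46e-05) and lost those of YTHDF2 (0.05, adjusted p = 0.85) and YTHDF3 (0.17, adjusted p = 0.427).

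Tnrc6a was at 64.1, 60.1 and 58.6 normalised CPM in input and at 240, 193 and 306 in the YTHDF1 RIP. YTHDF2 libraries held 101, 100.2 and 105, and YTHDF3 libraries 156, 141 and 139. No RIP library overlapped input. Changes over input on the log2 scale were 2.01 ± 0.18 (adjusted p = 1e-05), 0.74 ± 0.18 (adjusted p = 0.00753) and 1.254 ± 0.18 (adjusted p = 0.000251). Without the length trend the YTHDF1 (0.92) and YTHDF3 (0.63) calls held and the YTHDF2 value was 0.31 (adjusted p = 0.183).

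Summed per kilobase, the 3 TNRC6 mRNAs made 18.9 ± 1.24 CPM in input, 160 ± 31.0 with YTHDF1, 48.9 ± 1.27 with YTHDF2 and 48.4 ± 1.93 with YTHDF3. Shares within the family do not depend on scaling between libraries. The length trend was not removed from the sums and shares given here and below. Tnrc6c made up 44.1% ± 0.439 of the family in input, 56.1% ± 6.66 with YTHDF1, 65.5% ± 2.09 with YTHDF2 and 52.4% ± 1.60 with YTHDF3, above input in each RIP library. The share of Tnrc6a was 25.4% ± 1.29 in input and lower in the YTHDF1 (12.1% ± 1.096) and YTHDF2 (16.4% ± 0.182) libraries without overlap, and 23.6% ± 0.820 in the YTHDF3 RIP. Tnrc6b took 30.5% ± 1.21 in input, 31.8% ± 5.66 with YTHDF1, 18.1% ± 2.26 with YTHDF2 and 23.9% ± 1.80 with YTHDF3.

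**Figure D2:**
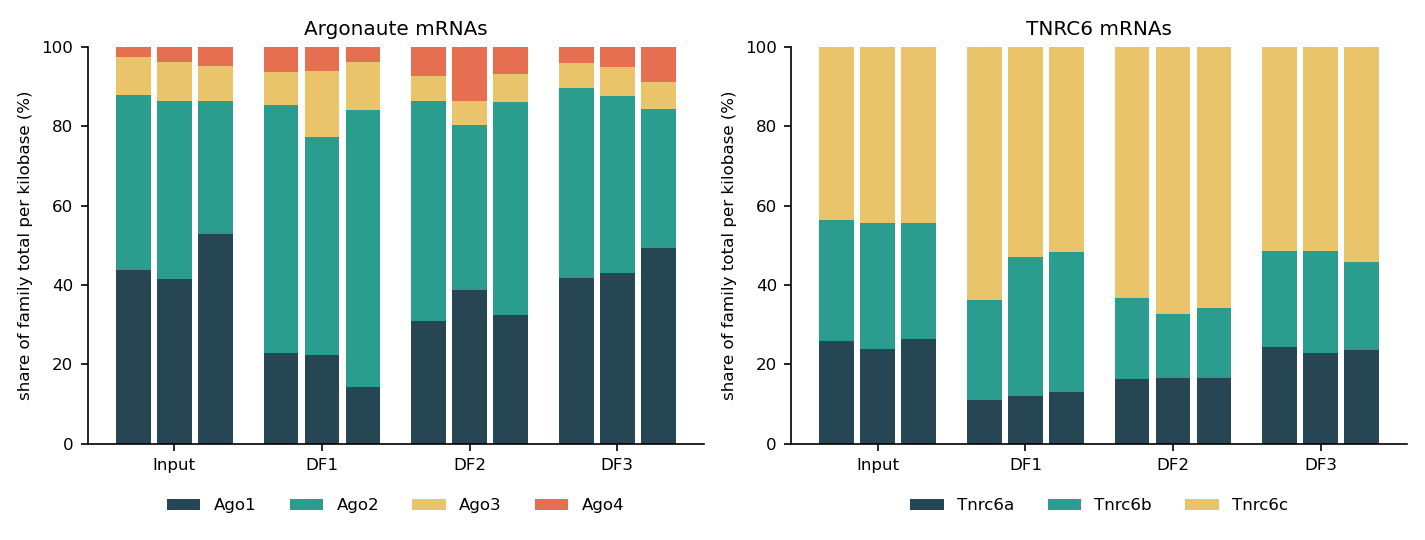
Share (%) of each gene in the family total of CPM per kilobase of exon, as stacked bars, one bar per library, for the Argonaute mRNAs on the left and the TNRC6 mRNAs on the right. Ago1 made up 46.1% of the Argonaute total in input and 19.9% in the YTHDF1 RIP on average, and Tnrc6c took a larger share of the TNRC6 total in all RIP libraries than in input. The length trend was not removed.

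The Argonaute mRNAs differed in which RIPs enriched them. Ago2, which encodes the Argonaute that can cut its target, was at 200.4, 199 and 115 normalised CPM in input and at 371, 402 and 797 in the YTHDF1 RIP. The YTHDF2 libraries had 297, 181 and 261 and the YTHDF3 libraries 342, 274 and 179. The YTHDF1 libraries lay above input, with replicate 3 far above the other two, and the other RIPs overlapped input. The log2 fold change was 1.61 ± 0.36 (adjusted p = 0.00318) for YTHDF1, and the values for YTHDF2 (0.52 ± 0.36, adjusted p = 0.281) and YTHDF3 (0.62 ± 0.36, adjusted p = 0.189) did not pass. Input and YTHDF3 RIP libraries of the same number deviated together, and in a fit of those 2 groups with the replicate number as a block Ago2 passed for YTHDF3 (0.68, adjusted p = 7.71e-07). Without the length trend the YTHDF1 value of Ago2 was 0.39 (adjusted p = 0.302). Its YTHDF1 call was also lost in a fit of YTHDF1 RIP and input alone with the replicate number as a block.

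Ago3 was at 50.6, 51.5 and 35.7 normalised CPM in input and at 58.0, 142 and 164 in the YTHDF1 RIP. Levels were 40.8, 31.7 and 41.9 with YTHDF2 and 53.5, 52.5 and 42.2 with YTHDF3. YTHDF1 replicate 1 lay just above input while replicates 2 and 3 lay well above it. The log2 fold change was 1.40 ± 0.32 (adjusted p = 0.00364) for YTHDF1, −0.27 ± 0.32 (adjusted p = 0.545) for YTHDF2 and 0.10 ± 0.32 (adjusted p = 0.824) for YTHDF3. Ago3 is among the longest genes, and without the length trend its YTHDF1 value was 0.01 (adjusted p = 0.972) and its YTHDF2 value −0.77 (adjusted p = 0.0442). The YTHDF1 call of Ago3 was also lost with YTHDF1 RIP and input fitted alone, blocked by replicate number.

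Ago4, the least abundant member, was at 5.63, 8.42 and 8.03 normalised CPM in input and at 18.3, 22.2 and 21.4 in the YTHDF1 RIP. YTHDF2 libraries held 19.1, 29.3 and 16.2, and YTHDF3 libraries 13.8, 15.3 and 22.1. All 9 RIP libraries exceeded input and the RIPs overlapped each other. The log2 fold changes were 1.49 ± 0.27 (adjusted p = 0.000809), 1.55 ± 0.27 (adjusted p = 0.00154) and 1.21 ± 0.27 (adjusted p = 0.00394), and 0.98, 1.28 and 0.89 without the length trend, all past the threshold.

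Ago1 was the member that YTHDF1 did not enrich. It was at 115, 107 and 105 normalised CPM in input and at 78.7, 94.6 and 95.5 in the YTHDF1 RIP. The YTHDF2 libraries had 96.1, 97.9 and 91.5 and the YTHDF3 libraries 172, 153 and 146. The YTHDF1 and YTHDF2 libraries lay below input and the YTHDF3 libraries above it. The log2 fold change of 0.53 ± 0.15 (adjusted p = 0.0134) for YTHDF3 passed, and those of −0.28 ± 0.15 (adjusted p = 0.125) for YTHDF1 and −0.19 ± 0.15 (adjusted p = 0.325) for YTHDF2 did not. These calls depended on the settings: without the length trend Ago1 was depleted by YTHDF1 (−0.94, adjusted p = 0.000403) and YTHDF2 (−0.52, adjusted p = 0.0208) and at 0.11 (adjusted p = 0.597) for YTHDF3, and without YTHDF3 replicate 1 the YTHDF3 call was lost (adjusted p = 0.0515). Scaling by library size alone also called Ago1 depleted by YTHDF1 (−0.69, adjusted p = 0.00123), as did leaving out YTHDF1 replicate 2 (−0.39, adjusted p = 0.0405).

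Within the Argonaute family, Ago1 made up 46.1% ± 5.98 of the total per kilobase in input, 19.9% ± 4.76 with YTHDF1, 34.1% ± 4.18 with YTHDF2 and 44.7% ± 4.04 with YTHDF3. The YTHDF1 and YTHDF2 libraries all lay below input. Ago2 took 40.9% ± 6.30 in input and 62.4% ± 7.30 in the YTHDF1 RIP, without overlap, and Ago4 went from 3.69% ± 1.11 in input to 9.16% ± 3.82 in the YTHDF2 RIP, also without overlap. With 3 libraries in each group the smallest p of an exact permutation test is 0.1, and the shares are given without a test.

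Among the processing factors, Dicer1 had the largest change. It was at 53.1, 52.3 and 57.8 normalised CPM in input and at 376, 387 and 512 in the YTHDF1 RIP. Levels were 167, 167 and 170 with YTHDF2 and 147, 149.7 and 147 with YTHDF3. The groups did not overlap. Over input, the log2 fold changes were 2.97 ± 0.17 (adjusted p = 1.45e-06), 1.63 ± 0.16 (adjusted p = 0.000207) and 1.44 ± 0.16 (adjusted p = 7.12e-05), and 1.59, 1.13 and 0.71 without the length trend, again all past the threshold. The gene is labelled a polymorphic pseudogene in the deposited annotation and protein-coding in GENCODE M21.

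Drosha was at 123, 106 and 112 normalised CPM in input and at 217, 216 and 217 in the YTHDF1 RIP. YTHDF2 libraries held 180, 148 and 175, and YTHDF3 libraries 225, 185 and 176. All RIP libraries exceeded input. Changes over input on the log2 scale were 0.93 ± 0.16 (adjusted p = 0.000535), 0.56 ± 0.16 (adjusted p = 0.0171) and 0.78 ± 0.16 (adjusted p = 0.00234). Without the length trend the YTHDF1 (0.55) and YTHDF3 (0.54) calls held and the YTHDF2 value was 0.33 (adjusted p = 0.167). The YTHDF2 call was also lost when input replicate 2 or 3 or YTHDF2 replicate 1 or 3 was left out, with adjusted p from 0.0512 to 0.0679. In fits of each RIP and input alone with the replicate block, the YTHDF1 and YTHDF2 calls of Drosha were lost.

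Dgcr8 had its highest mean in the YTHDF2 RIP. It was at 21.5, 22.5 and 20.6 normalised CPM in input and at 41.6, 41.1 and 35.6 in the YTHDF1 RIP. The YTHDF2 libraries had 63.2, 59.0 and 41.8 and the YTHDF3 libraries 44.5, 43.1 and 47.3. Each RIP library exceeded input, and each YTHDF2 library exceeded the YTHDF1 libraries, the lowest of them by a small margin. The log2 fold changes were 0.87 ± 0.17 (adjusted p = 0.00144), 1.34 ± 0.17 (adjusted p = 0.000401) and 1.06 ± 0.17 (adjusted p = 0.000609). Without the length trend the YTHDF2 (1.03) and YTHDF3 (0.67) calls held and the YTHDF1 value was 0.27 (adjusted p = 0.263). The YTHDF1 call was also lost with scaling by library size alone (0.48, adjusted p = 0.081). A fit of YTHDF1 RIP and input alone, blocked by replicate number, lost it as well. Of the processing total per kilobase, Dicer1 went from 12.9% ± 0.954 in input to 37.7% ± 4.26 in the YTHDF1 RIP, and Drosha went from 75.9% ± 1.48 to 54.6% ± 3.19.

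**Figure D3:**
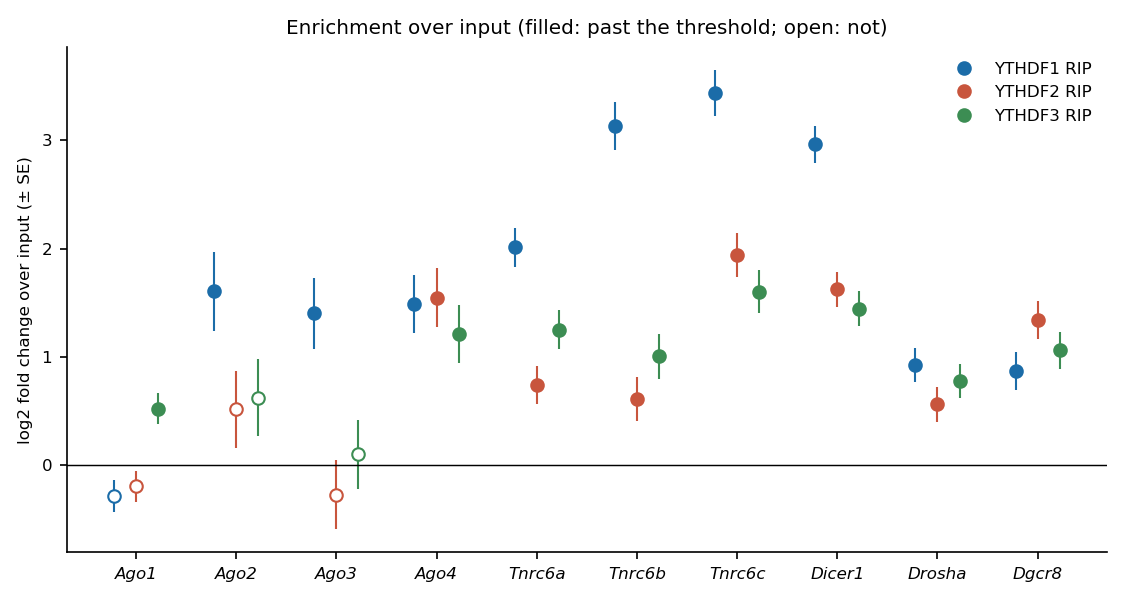
Log2 fold change over input ± SE from edgeR (3 libraries a group) for each mRNA in the 3 RIPs. Filled points passed the threshold, and Tnrc6c (3.44), Tnrc6b (3.13) and Dicer1 (2.97) were highest, all with YTHDF1.

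**Figure D4:**
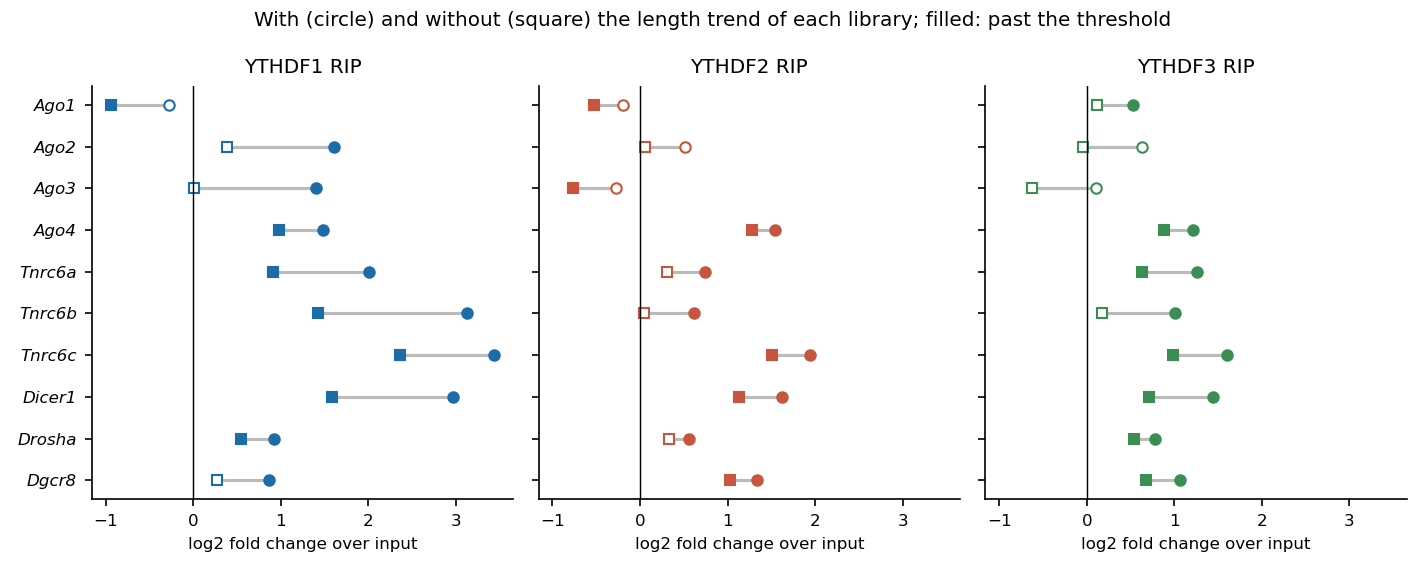
Log2 fold change over input of each mRNA as measured (circles) and after the length trend of each library was removed (squares), one panel per RIP, with filled symbols past the threshold. Values moved left in all 3 panels, and Tnrc6c, Dicer1 and Ago4 stayed past the threshold in each.

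The RIPs were next compared with each other, with a call needing a fold change of at least 2 and the same adjusted p. Such a comparison is of normalised levels in each precipitate, not of the amount of an mRNA that each protein bound. YTHDF1 exceeded YTHDF2 for 6 members and was lower for 0, where 11.4% and 6.10% of all genes were called higher and lower. Tnrc6b differed most, by 2.52 ± 0.22 on the log2 scale (adjusted p = 2.51e-05), followed by Ago3 at 1.67 ± 0.33 (adjusted p = 0.00306), Tnrc6c at 1.50 ± 0.20 (adjusted p = 0.000259), Dicer1 at 1.34 ± 0.16 (adjusted p = 0.00015) and Tnrc6a at 1.27 ± 0.18 (adjusted p = 0.000379). The call of Ago2 (1.09 ± 0.36, adjusted p = 0.0429) was lost with the replicate block (adjusted p = 0.0622) and without YTHDF1 replicate 3 (0.65, adjusted p = 0.2) or any YTHDF2 replicate. Dgcr8 went the other way at −0.47 ± 0.17 (adjusted p = 0.0637) and did not pass.

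YTHDF1 exceeded YTHDF3 for 4 members and was lower for 0, where 10.8% and 3.63% of all genes were called. The differences were 2.13 ± 0.21 (adjusted p = 9.08e-05) for Tnrc6b, 1.83 ± 0.20 (adjusted p = 0.000138) for Tnrc6c, 1.52 ± 0.16 (adjusted p = 0.000118) for Dicer1 and 1.30 ± 0.32 (adjusted p = 0.0144) for Ago3. All 4 calls were lost when YTHDF1 and YTHDF3 RIP were fitted on their own, blocked by replicate number, with adjusted p of 0.0512 for Tnrc6b, 0.073 for Tnrc6c, 0.0802 for Dicer1 and 0.24 for Ago3, and 1.85% of all genes were called higher and 0.596% lower. Same-numbered libraries of these RIPs did not deviate together (r of 0.11, −0.34 and −0.35), which limits what the block can show. Scaling by library size alone also cost the calls of Ago3 (0.53, adjusted p = 0.134) and Dicer1 (0.78, under the fold of 2), and Ago3 was lost without YTHDF1 replicate 2 (adjusted p = 0.0518) or YTHDF3 replicate 3 (adjusted p = 0.058). Ago1 was lower with YTHDF1 than with YTHDF3 by an amount under the fold of 2 (−0.81 ± 0.15, adjusted p = 0.00271). Between YTHDF2 and YTHDF3 0 members were called, where 3.95% of all genes were higher with YTHDF2 and 1.16% lower. That background fell when any of the 6 libraries was left out, to between 0.642% (without YTHDF3 replicate 2) and 2.11% (without YTHDF2 replicate 1) higher and between 0.403% and 0.876% lower. Ago1 alone passed the adjusted p there (−0.72 ± 0.15, adjusted p = 0.0169), and at an unadjusted p under 0.05 Tnrc6a did as well (−0.51 ± 0.18).

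A joint test of any difference among the 3 RIPs passed for 7 members, against 32.3% of all genes, and did not pass for Ago4 (adjusted p = 0.546), Drosha (adjusted p = 0.198) and Dgcr8 (adjusted p = 0.117). Ago2 passed narrowly (adjusted p = 0.049) and was lost under DESeq2 size factors (0.0554), protein-coding scaling (0.0844), library size (0.271), a minimum count of 50 (0.0618), the replicate block (0.0765) and removal of the length trend (0.467), and when any of 6 of the 9 RIP libraries was left out (0.0662 to 0.267). Ago3 was lost with the length trend removed (adjusted p = 0.064). Dgcr8 passed with the length trend removed (adjusted p = 0.0263), under library size (0.00689) and without YTHDF2 replicate 3 (0.0305), and Drosha passed under library size (0.0173). With the length trend removed, 1 member remained called between YTHDF1 and YTHDF2 (Tnrc6b, 1.38, adjusted p = 0.000118). Between YTHDF1 and YTHDF3, Tnrc6c (1.38, adjusted p = 0.00105) and Tnrc6b (1.254, adjusted p = 0.000322) remained and Ago1 was lower (−1.05, adjusted p = 0.000656). YTHDF1 differences from YTHDF3 also depended on scaling, and with libraries scaled by total count alone the median of all genes against input went from 0.02 to −0.38 for YTHDF1 and from 0.05 to 0.38 for YTHDF3. The genes called against input then split into 3087 higher and 6219 lower for YTHDF1, in place of 4662 and 4414, into 4822 and 3031 for YTHDF3 in place of 2817 and 3940, and into 767 and 3440 for YTHDF1 against YTHDF3 in place of 1858 and 621. YTHDF1 against YTHDF2 gave 1068 and 2796 in place of 1949 and 1045, and YTHDF2 against YTHDF3 482 and 718 in place of 676 and 198. Scaling on protein-coding genes gave 3675 and 5520 for YTHDF1 against input, 1600 and 1391 for YTHDF1 against YTHDF2 and 1368 and 971 for YTHDF1 against YTHDF3.

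The rest of the pathway was read from a list of 35 genes, of which 34 passed the filter (Lin28a did not). YTHDF1 enriched 20 and depleted 5, YTHDF2 enriched 16 and depleted 2, and YTHDF3 enriched 13 and depleted 3, with median log2 fold changes of 0.75, 0.48 and 0.51. Of all genes tested, 27.2% were enriched and 25.8% depleted by YTHDF1, 15.7% and 19.0% by YTHDF2 and 16.4% and 23.0% by YTHDF3. The YTHDF2 count was 10 without input replicate 1 or 3 and 5 with no filter on low counts. YTHDF2 then enriched 11.3%, 11.2% and 4.58% of all genes in the same order. With the length trend removed, 12, 7 and 8 were enriched, against 22.2%, 13.0% and 15.2% of all genes. Of the 13 silencing effectors, such as deadenylase subunits and decapping factors, 8, 7 and 7 were enriched and 1 was depleted by each protein, beside the same shares of all genes. With the length trend removed, YTHDF1 enriched only Dcp1a, Dcp2, Ddx6, Edc4 and Pan3 of these and depleted Dcp1b, Lsm14a and Pabpc1. YTHDF2 then enriched only Dcp2, Edc4 and Pan3, and YTHDF3 only Ddx6, Edc4 and Eif4enif1. Both depleted Pabpc1. The 4 precursor tailing and decay factors tested were all enriched by YTHDF1, and 1 by YTHDF2 and 2 by YTHDF3. With the length trend removed, Lin28b alone of them kept its YTHDF1 call (1.37, adjusted p = 0.0197). Tut4 (0.09, adjusted p = 0.654), Tut7 (−0.13, adjusted p = 0.48) and Dis3l2 (0.26, adjusted p = 0.205) lost theirs. Tut4 then kept its YTHDF3 call (0.45, adjusted p = 0.0364), and Tut7 lost those of YTHDF2 and YTHDF3. Neither of the Dicer partners Tarbp2 and Prkra was enriched.

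Among the genes called, Trim71, a ubiquitin ligase of early development known to bind Argonaute, had the highest value with YTHDF1 (4.38 ± 0.52, adjusted p = 5.6e-05) from a mean of 2.49 ± 1.15 CPM in input and 52.6 ± 25.5 CPM in the YTHDF1 RIP, and with YTHDF2 (1.44 ± 0.50, adjusted p = 0.0426). Pan3, a subunit of a deadenylase that TNRC6 recruits, came next with YTHDF1 (2.96 ± 0.18, adjusted p = 1.65e-06) and YTHDF2 (1.05 ± 0.17, adjusted p = 0.00109). Limd1 was higher with YTHDF2 but was not called (1.47, adjusted p = 0.118). With YTHDF3 the highest called were Tut7, a terminal uridylyltransferase (1.02 ± 0.15, adjusted p = 0.000375), and the helicase Ddx6 (1.00 ± 0.17, adjusted p = 0.000668), while Trim71 (1.11, adjusted p = 0.0912) and Limd1 (1.09, adjusted p = 0.228) were higher without passing. With the length trend removed, Trim71 (3.58) and Pan3 (1.73) kept their YTHDF1 calls, Pan3 (0.59, adjusted p = 0.0346) but not Trim71 (1.07, adjusted p = 0.108) its YTHDF2 call, and Ddx6 (0.60, adjusted p = 0.015) but not Tut7 (0.33, adjusted p = 0.097) its YTHDF3 call. Erh, a small cofactor of nuclear processing, was the lowest with each protein, at −2.30 ± 0.39 (adjusted p = 0.000529), −1.87 ± 0.39 (adjusted p = 0.00367) and −2.26 ± 0.39 (adjusted p = 0.000821). Prkra was next lowest with YTHDF1 (−1.35 ± 0.45, adjusted p = 0.0241), and Pabpc1, which encodes the cytoplasmic poly(A)-binding protein, with YTHDF2 (−1.82 ± 0.19, adjusted p = 0.000217) and YTHDF3 (−1.50 ± 0.19, adjusted p = 0.000133). The calls of Erh and Pabpc1 held with the length trend removed and that of Prkra did not (−0.97, adjusted p = 0.0695).

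**Figure D5:**
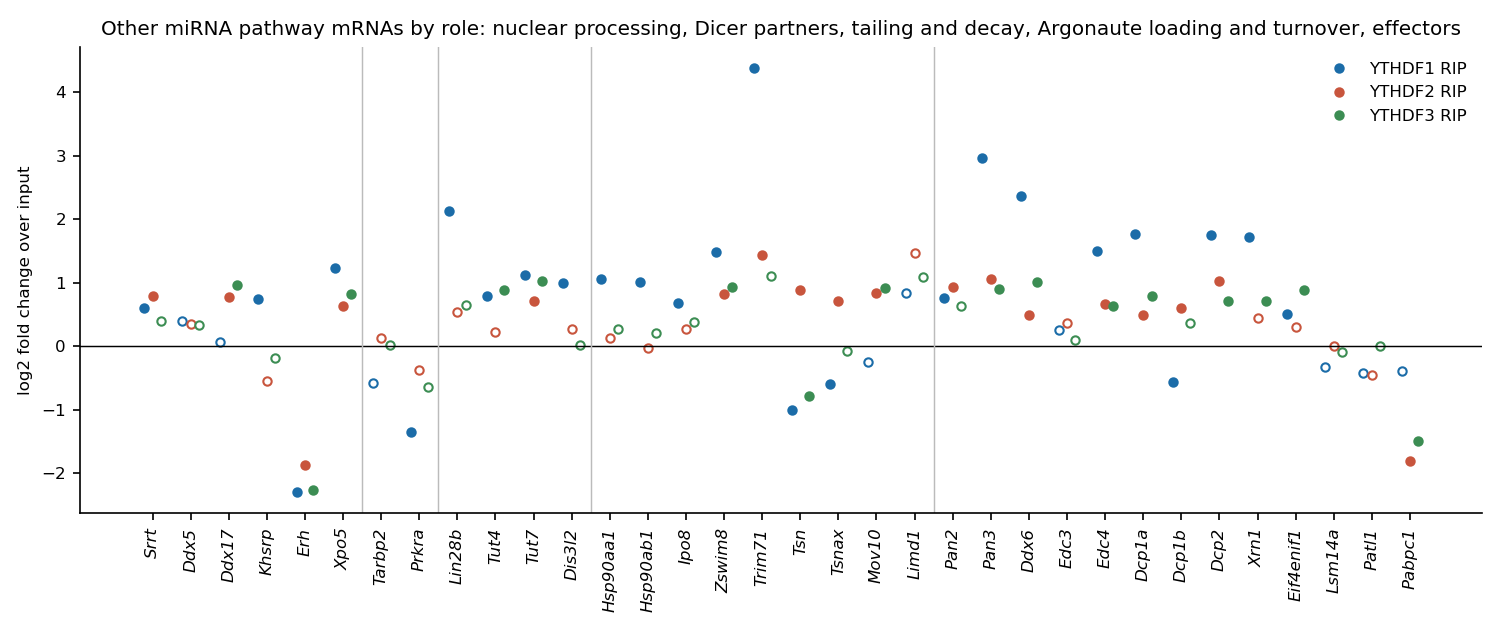
Log2 fold change over input of the 34 other pathway genes tested, grouped by role between vertical lines, with filled points past the threshold. Trim71 (4.38) and Pan3 (2.96) were highest with YTHDF1 and Erh was lowest in all 3 RIPs.

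Across the 12 libraries, Tnrc6c and Dicer1 had the most similar profiles of any pair of members (r = 0.99 on log2 CPM). The lowest r of a pair was that of Ago1 and Tnrc6c (r = −0.38), a weak value that was not tested. Among 13438 protein-coding genes the profile closest to Tnrc6c was that of Zfp790 (r = 0.994), and to Dicer1 that of Wdr6 (r = 0.995). Tnrc6b was closest to Pdzd8 (r = 0.994) and Fbxw7 (r = 0.993), Tnrc6a to Ash1l and Heatr5b (r = 0.991 each), and Ago3 to Mosmo (r = 0.987). Ago1 was closest to Nr2c2 (r = 0.965), Ago2 to Cacna1e (r = 0.969), Ago4 to Trp53bp2 (r = 0.964), Drosha to Chd5 (r = 0.969) and Dgcr8 to Usp48 (r = 0.981). These correlations are descriptions over libraries that share inputs of the same experiment and fall into 4 groups.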

How the data were processed

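RIP-seq and input libraries were made by the authors with a strand-specific kit for total RNA (SMARTer). Per the labels and the study's methods, molecular identifiers were extracted with UMI-tools 1.1.1, reads were trimmed with cutadapt 3.4 and aligned to mm10 with STAR 2.7.7a, duplicates were removed, and fragments were counted with featureCounts 2.0.1, which counted reads matching several places or genes for each of them. The deposited table holds raw counts per gene for 12 libraries. The authors' own tables of fold changes and p-values were used only for gene symbols and biotypes.

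Counts were tested with edgeR 4.0.16 (R 4.3.3): genes with a mean normalised count of at least 10, TMM scaling, and a quasi-likelihood test over all 12 libraries with one coefficient per group. Benjamini-Hochberg adjustment ran over all genes tested. A call needed an adjusted p of at most 0.05 and an absolute log2 fold change of at least 0.32 against input, or a fold change of 2 between RIPs. CPM used TMM-scaled library sizes, and levels per kilobase the summed exon length. The procedure was tested on simulated data. No pair of libraries held identical counts. The RIPs of a replicate were split from a shared lysate, but library numbers are not stated to mark it: all 3 same-numbered pairs deviated together for YTHDF3 RIP and input (r from 0.53 to 0.83), for YTHDF1 and YTHDF2 RIP r was 0.06, 0.54 and 0.35, and for each other pair of groups at least 1 r was negative. The fit of all 12 libraries has no block, and most member calls that a block changed are named in the text. P-values measure the spread between 3 libraries a group. Count precision is limited by the smallest member, with 74 counts in its lowest library.

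The members, the pathway list and the marker lists were chosen with earlier results of these data known. All 10 members were named in every comparison, together with the 2 highest and 2 lowest called pathway genes of each RIP and the genes most correlated with each member. Alternatives were other scalings (library size, DESeq2 1.42.0 size factors, protein-coding genes), the DESeq2 test, other count minimums, the replicate block, the 2 groups alone, removal of a loess trend (span 0.3) on gene length, and each replicate left out.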

Additional observations from a re-analysis of the deposited data

Results flagged for a closer look

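Effects over input differed between RIPs for 10 comparisons, each by a test of the difference itself. YTHDF1 exceeded YTHDF2 by 1.09 on the log2 scale for Ago2, 1.67 for Ago3, 1.27 for Tnrc6a, 2.52 for Tnrc6b, 1.50 for Tnrc6c and 1.34 for Dicer1. YTHDF1 exceeded YTHDF3 by 1.30 for Ago3, 2.13 for Tnrc6b, 1.83 for Tnrc6c and 1.52 for Dicer1. All 3 YTHDF1 libraries lay above those of the other RIP in each case. That adds no support, because these comparisons were picked by calls on the same libraries. The same held for Tnrc6a and Ago2 against YTHDF3, which were not called. With the length trend removed, Tnrc6b kept its call against both proteins and Tnrc6c against YTHDF3. Dicer1 against YTHDF3 (0.88, adjusted p = 0.00193) and Tnrc6c (0.85, adjusted p = 0.011), Ago3 (0.78, adjusted p = 0.046), Tnrc6a (0.61, adjusted p = 0.0181) and Dicer1 (0.46, adjusted p = 0.0419) against YTHDF2 then passed the adjusted p of the edgeR test but lay under the fold of 2. Ago2 against YTHDF2 (0.33, adjusted p = 0.459) and Ago3 against YTHDF3 (0.64, adjusted p = 0.102) did not pass. In a fit of YTHDF1 and YTHDF3 alone with the replicate block, the 4 calls between them were lost (adjusted p from 0.0512 for Tnrc6b to 0.24 for Ago3). Same-numbered libraries of these RIPs did not deviate together, which limits what that block can show.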

How the results depend on the processing

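Leaving out each library gave 9 members enriched by YTHDF1 in every case and 0 to 1 depleted (1 without YTHDF1 replicate 2), 5 to 7 enriched by YTHDF2 and 7 to 8 by YTHDF3, 5 to 6 higher with YTHDF1 than YTHDF2, 3 to 5 higher with YTHDF1 than YTHDF3, and 6 to 7 different among the RIPs. The pathway list then gave 18 to 20 enriched and 3 to 7 depleted for YTHDF1 (3 without YTHDF1 replicate 1 or 3), 10 to 14 enriched for YTHDF2 (10 without input replicate 1 or 3) and 11 to 13 for YTHDF3. The enriched share of all genes ran from 21.5% to 26.6% for YTHDF1, 11.1% to 12.6% for YTHDF2 and 11.5% to 14.1% for YTHDF3. With YTHDF1, 9.44% to 12.2% of all genes were higher than with YTHDF2 and 6.94% to 11.8% higher than with YTHDF3. YTHDF1 depleted 21.8% to 30.0% of all genes, the latter without YTHDF1 replicate 2. Of the 17126 genes tested, 3891 to 6681 were different among the RIPs. Of the log2 fold changes against input, 168 of 180 kept direction and call when a library was left out and 287 of 330 under the other alternatives. Between RIPs these were 169 of 180 and 285 of 330. The cause of the changes was not tested.

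Without the length trend, 1 member was depleted by YTHDF1, 4 were enriched and 2 depleted by YTHDF2 (1 with the block), 1 was higher with YTHDF1 than YTHDF2, and 2 were higher and 1 lower with YTHDF1 than YTHDF3. Of all genes, 24.6% were then depleted by YTHDF1, and 13.0% enriched and 16.4% depleted by YTHDF2. Shares between RIPs were 9.13% higher with YTHDF1 than YTHDF2, and 7.06% higher and 5.88% lower with YTHDF1 than YTHDF3. The list gave 12 enriched for YTHDF1, 7 for YTHDF2 and 8 for YTHDF3, and with the replicate block too 12 enriched and 8 depleted for YTHDF1, 6 enriched for YTHDF2 and 7 for YTHDF3. The enriched shares of all genes were 22.2%, 13.0% and 15.2%. With the block too they were 21.4%, 13.1% and 15.1%, and YTHDF1 depleted 24.3%. Ago3 turned to −0.0067 for YTHDF1 with the block and to −0.63 for YTHDF3, and Ago2 to −0.040 for YTHDF3 (−0.048 with the block) and to 0.10 for YTHDF2 against YTHDF3 in both fits. Library size alone gave 1 depleted by YTHDF1, 3 higher with YTHDF1 than YTHDF2, and 2 higher and 1 lower with YTHDF1 than YTHDF3, with 10 of the list depleted by YTHDF1 and 20 enriched by YTHDF3. YTHDF1 then depleted 36.3% of all genes and YTHDF3 enriched 28.2%. With YTHDF1, 6.24% of all genes were higher than with YTHDF2, and 4.48% higher and 20.1% lower than with YTHDF3. Under library size alone Drosha turned to −0.10 for YTHDF1 against YTHDF2 and −0.57 against YTHDF3, Ago4 to −0.48 for YTHDF1 against YTHDF3, and Dicer1 to −0.076 for YTHDF2 against YTHDF3. Scaling on protein-coding genes gave 1 depleted by YTHDF1, 1 lower than with YTHDF3, and Drosha at −0.052 there. The shares of all genes were 32.2% depleted by YTHDF1 and 5.67% lower with YTHDF1 than YTHDF3. A minimum count of 50 gave 1 depleted by YTHDF1, against 30.4% of all genes. No filter gave 4 enriched by YTHDF2, 3 of the list depleted by YTHDF1 and 5 enriched by YTHDF2, Drosha at −0.035 for YTHDF1 against YTHDF3 and Dicer1 at −0.050 for YTHDF2 against YTHDF3. YTHDF2 then enriched 4.58% of all genes and YTHDF1 depleted 10.3%.

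With the 2 groups alone and the replicate block, 5 members were enriched by YTHDF1, 0 were higher with YTHDF1 than YTHDF3, 12 of the list were enriched and 2 depleted by YTHDF1, 20 were enriched by YTHDF3, and Drosha was at −0.043 for YTHDF1 against YTHDF3. YTHDF1 then enriched 14.0% and depleted 17.7% of all genes, YTHDF3 enriched 36.3%, and 1.85% were higher with YTHDF1 than YTHDF3. Without the block, 1 member was lower with YTHDF1 than YTHDF3, against 3.75% of all genes, and Drosha was at −0.048. The 4 YTHDF1 calls lost with the block were Ago2, Ago3, Drosha and Dgcr8. In all 12 libraries the block cost the YTHDF2 call of Tnrc6b (0.61) and the Ago2 call between YTHDF1 and YTHDF2 (1.11), and the difference of Ago2 among the RIPs (adjusted p = 0.0765), and changed no other call of a member. Leaving out a library turned values that were not called: Ago3 for YTHDF3 ranged from −0.0067 to 0.21, Ago4 for YTHDF1 against YTHDF2 from −0.23 to 0.22 and Ago2 for YTHDF2 against YTHDF3 from −0.32 to 0.12. Depth limits Ago4 most, with as few as 74 counts.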
